A study of Mus musculus with 6 samples.

Results

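The cells of tolerized kidney allografts that carried no UMI of 3 leukocyte genes were compared with the same kind of cells from naive kidneys, to show how the kidney's own cells differed between an accepted graft and an untransplanted kidney. Cells were chosen by their counts of unique molecular identifiers (UMIs, each standing for 1 captured transcript). A barcode was kept when it had at least 500 UMIs, at least 250 genes, at most 50% of UMIs from mitochondrial genes, and 0 UMIs of Ptprc (CD45), Cd3e, and C1qb, which mark leukocytes, T cells, and macrophages. This left 21205 cells of the 29979 barcodes of these 4 kidneys that passed the limits, and of 49797 in the whole series of 6 kidneys. The naive kidneys gave 6998 and 5729 cells, and the tolerized kidneys 4312 and 4166. Because the rule set Ptprc, Cd3e, and C1qb to 0, no result is given for these 3 genes.

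Each kidney was 1 library, with 2 kidneys in each group. Naive kidneys came from untransplanted C57BL/6 (B6) males 10 to 12 weeks old. Tolerized kidneys were BALB/c kidneys placed in B6 male recipients whose own kidneys had both been removed. These recipients were given BALB/c splenocytes fixed with ethylenecarbodiimide (ECDI-SP) by vein 7 days before and 1 day after transplantation, and the grafts were taken on day 15. Rejecting kidneys were BALB/c grafts in B6 recipients without ECDI-SP, also taken on day 15, and are used below for 1 comparison. The BALB/c donors were 6 to 7 weeks old. All 6 kidneys were labelled male, although the design text allowed donors of either sex. Strain, age, transplantation, the software header of the count matrices, and the list of genes counted all differed between naive and tolerized kidneys and cannot be told apart. The study ran 2 experiments with kidneys processed together across groups, but the labels do not say which kidney belonged to which, so the fit has no term for the experiment and p values measure the spread between these kidneys only.

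Interferon-gamma, made by T cells and natural killer cells, induces guanylate-binding proteins, immunity-related GTPases, chemokines for T cells, and the immunoproteasome. Through the transactivators NLRC5 and CIITA, it raises MHC class I and class II molecules, which present peptides to CD8 and CD4 T cells. Tubular epithelium has little MHC class II at rest and can acquire it in inflamed kidneys. The proximal tubule, the most abundant epithelium of the kidney cortex, reabsorbs solutes and protein, depends on mitochondrial fatty acid oxidation, and expresses Havcr1 (KIM-1) and Vcam1 after injury.

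The kept cells had the markers of kidney epithelium and endothelium. Each barcode was assigned to the kidney marker list with the most UMIs in it, and ties were left out, which gives a range and not a cell type. The proximal tubule list led in 76.7% and 74.5% of naive cells and in 73.4% and 61.9% of tolerized cells. The thick ascending limb list led in 7.37% and 8.45% of naive cells and in 9.79% and 13.9% of tolerized cells. Distal convoluted tubule markers led in 5.84% and 6.02% of naive cells and in 6.03% and 10.5% of tolerized cells. Principal cell markers led in 4.63% and 5.64% against 2.34% and 5.71%, and endothelial markers in 3.64% and 3.79% against 4.71% and 4.63%. The tolerized kidneys therefore lay on one side of the naive kidneys for the proximal tubule, the thick ascending limb, the distal convoluted tubule, and the endothelium, but 2 kidneys against 2 cannot give an exact 2-sided permutation p below 0.3333. Podocyte markers led in only 3 or 4 cells in each of these kidneys. Between 0 and 70 cells of a list and kidney led by a single UMI.

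The rule removed different shares of the groups. It kept 96.9% and 94.6% of naive barcodes and 43.9% and 60.6% of tolerized barcodes that passed the limits, a difference in the number of cells of -2124.5 per kidney (exact permutation test, 2-sided, p = 0.3333, the smallest p this design allows). Barcodes left out for exactly 1 UMI of the 3 genes numbered 107 and 138 in naive and 1047 and 631 in tolerized kidneys. The fewest UMIs of any kept cell were 1538 and 1342 in naive and 502 and 500 in tolerized kidneys, so that only tolerized cells lay near the limit of 500. Naive cells had medians of 3731.5 and 3503 UMIs and 25.8% and 25.5% mitochondrial UMIs. Tolerized cells had medians of 6193.5 and 7795 UMIs and 14.9% and 19.7% mitochondrial UMIs. With a limit of 20% mitochondrial UMIs the difference in cell number turned to 308 more cells per tolerized kidney (exact p = 0.6667). The naive kidneys shared 50 barcode sequences among their kept cells, the tolerized kidneys 4, and a naive and a tolerized kidney at most 1. Kept UMIs of the shared genes totalled 32501476 and 23623096 in the naive kidneys and 40235671 and 53379494 in the tolerized kidneys.

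Raw counts were summed per kidney and tested with edgeR's quasi-likelihood method, and p values were adjusted across all 14494 genes tested (Benjamini-Hochberg) to give a false discovery rate, or FDR. Levels are given as CPM, the sums scaled to a common total per kidney after TMM normalization. They are not divided by transcript length, so levels are compared between kidneys and not between genes. Each difference is log2 of tolerized over naive, with its standard error (SE). At an FDR of 0.05, 3527 genes differed (24.3% of those tested). Tolerized kidneys had more of 1836 of these (12.7%) and less of 1691 (11.7%). The groups of 2 did not overlap for 67.5% of genes tested. The count fell to 1363 without naive 1 and to 1321 without naive 2, and was 3471 and 3598 without tolerized 1 and tolerized 2. Of the 1363 and 1321 genes, 1302 and 1266 were among the 3527. When a kidney is left out, the lone kidney of its group is assumed to vary like the other group. In such sums, fewer cells of a type and less RNA in each of them cannot be told apart. The test was also run in proximal tubule-leading cells alone, where 3931 of 13225 genes (29.7%) were called (15.6% higher and 14.1% lower), and in cells led by another kidney list, where 2260 of 12912 (17.5%) were called (9.22% higher and 8.29% lower). At 20% mitochondrial UMIs, 1944 of 13611 genes were higher and 1718 lower. By DESeq2's test these were 1913 and 1886 of 14494, and with a replicate block 1068 and 954 of 14494. With all 6 kidneys fitted together they were 1602 and 1315 of 14701. With the wider leukocyte exclusion described below they were 1707 and 1494 of 13733. Without a filter on low counts they were 2454 and 2018 of 19989, and after thinning to 500 UMIs per cell 1118 and 1020 of 10470.

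The 4 lists for interferon and antigen presentation moved together. Of their 84 distinct members tested, 81 were higher in tolerized kidneys and 0 were lower. By list, 25 of 25 interferon-gamma-induced genes, 9 of 9 MHC class II genes, 22 of 22 genes of MHC class I and peptide loading, and 25 of 28 type I interferon-stimulated genes were called higher, beside 12.7% of all genes. Their median log2 differences were 4.86, 4.94, 3.03, and 2.20, beside 0.03 over all genes tested. No tested member was in more than 1 of the 4 lists, and all lists were chosen with earlier results of these data known.

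**Figure D1:**
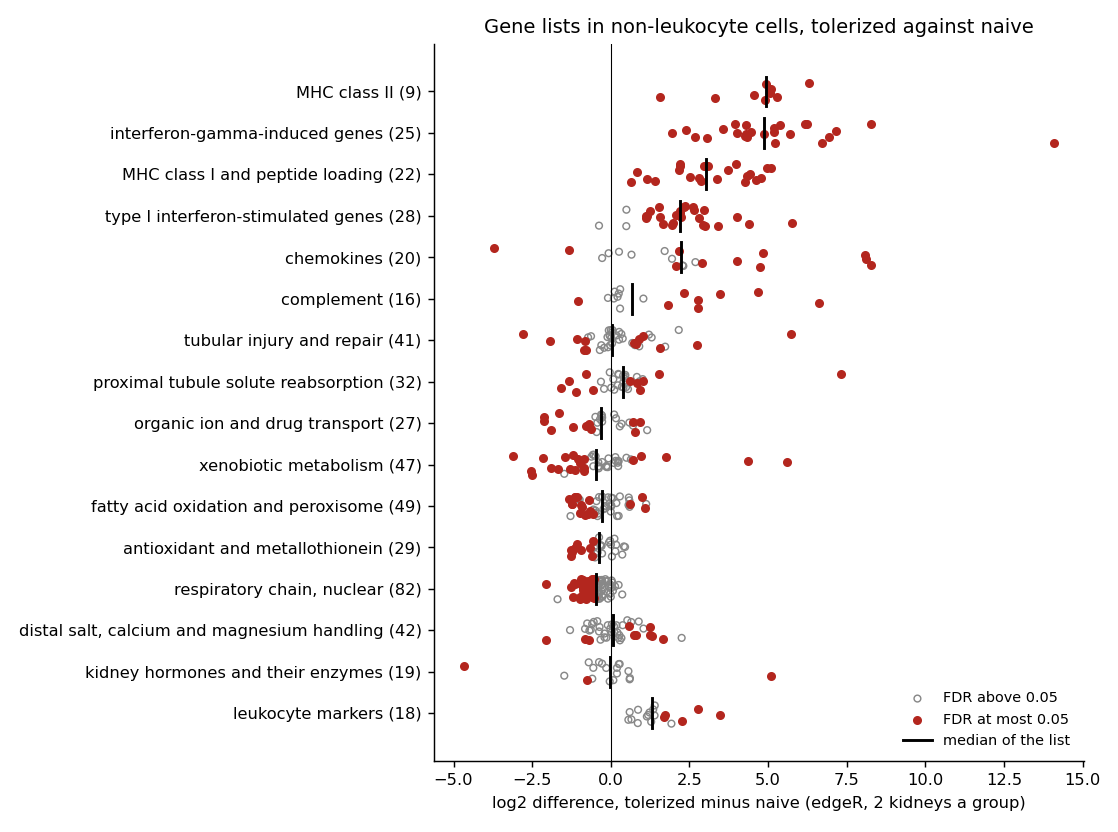
Each point is 1 gene, placed by its log2 difference of tolerized minus naive kidneys (x axis) in the list named on the y axis, with the number of genes tested in parentheses. Filled points passed an FDR of 0.05 in edgeR's quasi-likelihood test, open points did not, and black bars are list medians. The MHC class II, interferon-gamma, and MHC class I points lie to the right of 0 without exception, and 34 of 82 nuclear respiratory chain genes are filled points to the left of it.

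The promoters of 3 members and of Gbp2b, an interferon-inducible gene outside the 4 lists, are shown because a letter pattern bound by interferon regulatory factors recurs in these windows. It is GAAA followed by any 2 bases and GAAA again (ISRE), searched on both strands from 250 bases before to 50 bases after each RefSeq start. ISRE letters occurred in 3.99% of the 27025 genes with a window. Among interferon-gamma-induced genes, 16 of 25 had a window, of which 11 held ISRE letters. For type I interferon-stimulated genes, 12 of 21 did, for MHC class I genes 5 of 19, and for MHC class II genes 1 of 6. A match is a description of the letters and not a binding site shown here. The windows of Igtp, Bst2, B2m, and Gbp2b are given 5′ to 3′ on the strand of the gene (RefSeq, GRCm38.p6), with matched letters in capitals. The Igtp, B2m, and Gbp2b windows hold 1 match each, in Gbp2b on the opposite strand. In the Bst2 window, 2 matches overlap in 1 run of capitals.
Igtp, chr11:58199306-58199605, plus strand: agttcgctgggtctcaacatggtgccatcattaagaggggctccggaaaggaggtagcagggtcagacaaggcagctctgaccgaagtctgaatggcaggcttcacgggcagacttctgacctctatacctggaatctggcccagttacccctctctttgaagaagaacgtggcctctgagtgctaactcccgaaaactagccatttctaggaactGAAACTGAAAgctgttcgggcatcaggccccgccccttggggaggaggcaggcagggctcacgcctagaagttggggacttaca
Bst2, chr8:71537423-71537722, minus strand: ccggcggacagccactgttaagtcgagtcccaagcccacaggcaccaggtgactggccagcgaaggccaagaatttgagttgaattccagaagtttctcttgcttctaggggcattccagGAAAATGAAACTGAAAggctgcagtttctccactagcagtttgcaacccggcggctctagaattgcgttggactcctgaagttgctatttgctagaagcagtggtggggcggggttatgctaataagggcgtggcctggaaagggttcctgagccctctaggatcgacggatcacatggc
B2m, chr2:122147437-122147736, plus strand: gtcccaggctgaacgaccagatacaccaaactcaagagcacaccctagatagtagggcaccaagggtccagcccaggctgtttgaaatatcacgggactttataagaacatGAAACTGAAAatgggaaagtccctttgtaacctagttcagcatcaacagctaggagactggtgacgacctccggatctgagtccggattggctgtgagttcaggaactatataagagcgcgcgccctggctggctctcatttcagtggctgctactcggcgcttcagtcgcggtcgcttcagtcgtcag
Gbp2b, chr3:142594597-142594896, plus strand: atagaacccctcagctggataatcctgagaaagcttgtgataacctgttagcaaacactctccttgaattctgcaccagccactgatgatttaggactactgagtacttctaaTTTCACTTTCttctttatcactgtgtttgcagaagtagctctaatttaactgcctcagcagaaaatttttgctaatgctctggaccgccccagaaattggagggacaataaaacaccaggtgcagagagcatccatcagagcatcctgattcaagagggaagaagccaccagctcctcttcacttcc

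Interferon-gamma-induced genes rose from low levels. Iigp1, an immunity-related GTPase that attacks vacuoles of intracellular parasites, had 5.95 and 9.82 CPM in the naive kidneys and 1131 and 1127 CPM in the tolerized kidneys. The tolerized values lay close together and 144-fold above the naive ones (log2 difference 7.17, SE 0.32, FDR 0.000123). Igtp, another GTPase of this family, had 6.29 and 12.4 CPM in the naive and 363 and 334 CPM in the tolerized kidneys (log2 difference 5.23, SE 0.35, FDR 0.000418). Both groups stood well apart for each of these GTPases.

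Guanylate-binding proteins, which coat pathogen vacuoles, rose as well. Gbp4 had 0.964 and 1.83 CPM in naive kidneys and 141 and 149 CPM in tolerized kidneys (log2 difference 6.73, SE 0.30, FDR 0.000123). Gbp6 had 0.0998 and 0.436 CPM in naive and 25.98 and 35.6 CPM in tolerized kidneys (log2 difference 6.93, SE 0.45, FDR 0.000366). No UMI of Gbp10 was found in either naive kidney, against 46.2 and 69.4 CPM in the tolerized kidneys, at least 501-fold higher when 3 UMIs per naive kidney are taken as the floor (FDR 0.000268). Gbp2b likewise had 0 UMIs in both naive kidneys and 298 and 257 CPM in the tolerized kidneys, at least 2406-fold higher (FDR 7.93e-05). These bounds cover counting error only. Genes of this family are close copies of each other, and Gbp4, Gbp6, and Gbp10, like Igtp, overlap other genes of the shared list, so that reads may be split between them. The inducibility of Gbp2b is known to differ between mouse strains, and strain cannot be told apart from group here.

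Chemokines of the pathway that attract T cells rose too. Cxcl10 had 8.65 and 5.76 CPM in naive and 105 and 130.1 CPM in tolerized kidneys (log2 difference 4.02, SE 0.25, FDR 0.000331). Cxcl9 was almost not detected in naive kidneys, at 0.0333 and 0.0873 CPM or 1 and 2 UMIs, and reached 23.3 and 14.2 CPM in tolerized kidneys (FDR 0.000291). Ubd, a ubiquitin-like modifier induced by interferon-gamma and TNF, had 1.56 and 1.13 CPM in naive and 387 and 278 CPM in tolerized kidneys (log2 difference 7.93, SE 0.30, FDR 7.93e-05). All 3 had separate groups, as did 67.5% of all genes tested. The count of interferon-gamma-induced genes called was 24 to 25 of 25 when any kidney was left out.

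All 9 MHC class II genes tested rose. Ciita, the transactivator of the class II genes, had 0.499 and 0.567 CPM in naive and 47.9 and 36.7 CPM in tolerized kidneys (log2 difference 6.31, SE 0.25, FDR 9.16e-05). Cd74, the invariant chain that guards the class II groove, had 83.2 and 137 CPM in the naive kidneys and 3981 and 2766 CPM in the tolerized kidneys, a 30.7-fold difference (log2 difference 4.94, SE 0.34, FDR 0.000447). The class II chains followed, with H2-Ab1 at 25.7 and 43.8 CPM in naive and 1529.7 and 1151 CPM in tolerized kidneys (log2 difference 5.27, SE 0.34, FDR 0.000361). H2-Eb1 had 14.5 and 29.1 CPM in naive and 850.4 and 594 CPM in tolerized kidneys (log2 difference 5.05, FDR 0.000751). H2-DMb2, part of the peptide editor H2-DM, had 1.66 and 5.02 CPM in naive and 124 and 98.5 CPM in tolerized kidneys (log2 difference 5.09, FDR 0.0015). In each of these genes tolerized 1 was the higher of the tolerized kidneys and naive 1 the lower of the naive kidneys.

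Naive cells already held class I transcripts. H2-D1 had 138 and 161 CPM in naive and 2198 and 2531 CPM in tolerized kidneys (log2 difference 3.98, SE 0.19, FDR 0.000157), and H2-K1 had 114 and 159 CPM against 1859 and 1775 CPM (log2 difference 3.73, SE 0.22, FDR 0.000291). B2m, the light chain of class I, had 219 and 376 CPM in naive and 1867 and 2435 CPM in tolerized kidneys (log2 difference 2.85, SE 0.30, FDR 0.00217). Every tolerized value of these chains exceeded every naive value, where groups did not overlap for 67.5% of all genes tested. Nlrc5, the class I transactivator, had 0.200 and 0.698 CPM in naive and 13.8 and 12.9 CPM in tolerized kidneys (log2 difference 4.97, SE 0.43, FDR 0.00105). Psmb8, a subunit of the immunoproteasome, had 12.5 and 21.99 CPM in naive and 616 and 564 CPM in tolerized kidneys (log2 difference 5.10, SE 0.32, FDR 0.000337), and Psmb9, another such subunit, had 5.12 and 8.73 CPM against 168 and 206 CPM (log2 difference 4.76, SE 0.30, FDR 0.000338). Calr, a chaperone of peptide loading in the endoplasmic reticulum, differed less, with 379.9 and 323 CPM in naive and 655 and 594 CPM in tolerized kidneys (log2 difference 0.83, SE 0.17, FDR 0.0175). This call ended without either naive kidney (FDR 0.0759 without naive 1 and 0.151 without naive 2). Class I and class II chains are alleles of different haplotypes in B6 and BALB/c and near-copies within a mouse, and reads of both strains were counted against the mm10 reference, which is of B6 origin. What this did to the counts was not tested.

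Type I interferon-stimulated genes moved the same way. Zbp1, a sensor of nucleic acids, had 0.166 and 0.742 CPM in naive and 29.3 and 17.2 CPM in tolerized kidneys (log2 difference 5.76, SE 0.55, FDR 0.00151). Bst2 (tetherin), which holds budding virus at the cell surface, had 15.6 and 29.2 CPM in naive and 244 and 234 CPM in tolerized kidneys (log2 difference 3.42, SE 0.31, FDR 0.00123). Ifit2, which binds viral RNA, had 2.63 and 1.92 CPM against 42.99 and 30.9 CPM (log2 difference 4.01, SE 0.26, FDR 0.000361), and Isg15, a ubiquitin-like modifier, had 7.62 and 17.1 CPM against 64.9 and 57.9 CPM (log2 difference 2.32, SE 0.36, FDR 0.00747). Ifi27 was the least changed of those named, at 47.8 and 58.8 CPM in naive and 180.4 and 158 CPM in tolerized kidneys (log2 difference 1.67, SE 0.17, FDR 0.00198). None of these overlapped between groups, as was so for 67.5% of all genes tested. Without naive 1, 17 of 28 members were called higher and 1 lower, and without naive 2, 22 were called higher.

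**Figure D2:**
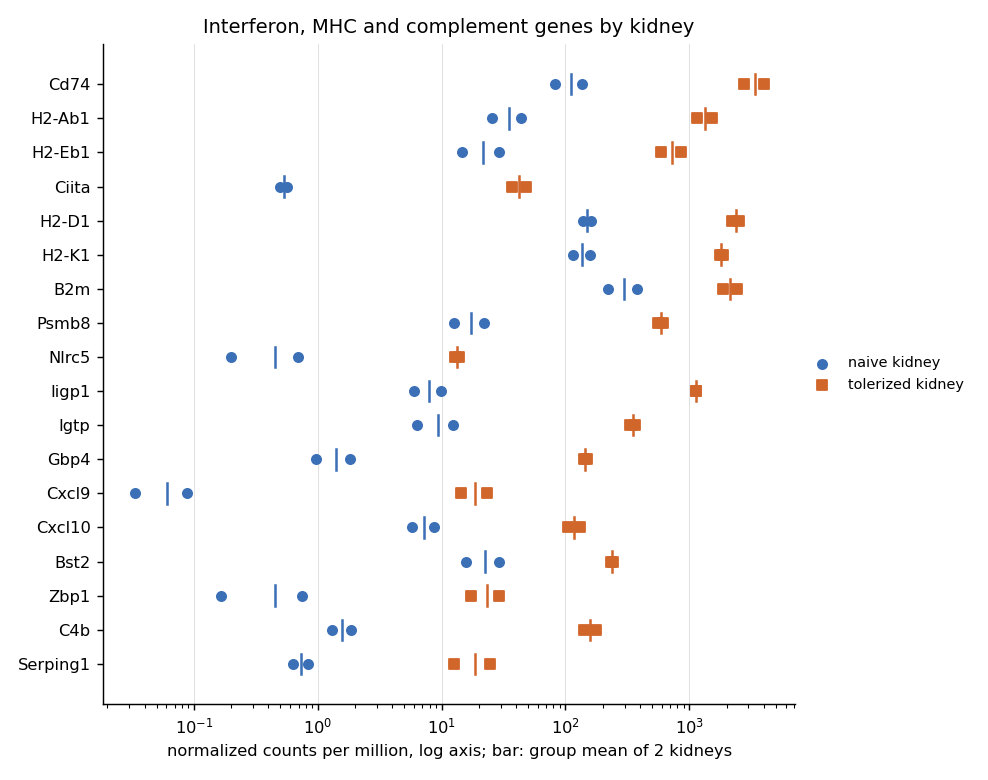
Normalized CPM (x axis, log scale) of genes of interferon response, antigen presentation, and complement in each naive kidney (circles) and each tolerized kidney (squares), with bars at the group means of 2 kidneys. For each gene the squares lie to the right of the circles, with Iigp1 moving from 5.95 and 9.82 CPM to 1131 and 1127 CPM.

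Of 16 complement genes tested, 7 were higher and 1 was lower, beside 12.7% and 11.7% of all genes. C4b, a component of the classical and lectin pathways, had 1.86 and 1.31 CPM in naive and 177 and 141 CPM in tolerized kidneys, 99.0-fold higher (log2 difference 6.63, SE 0.25, FDR 7.93e-05). Serping1, the C1 inhibitor, had 0.632 and 0.829 CPM in naive and 24.4 and 12.6 CPM in tolerized kidneys (log2 difference 4.67, SE 0.41, FDR 0.00116). C1ra, a protease of the C1 complex, had 1.10 and 1.75 CPM in naive and 7.51 and 11.8 CPM in tolerized kidneys (log2 difference 2.78, SE 0.34, FDR 0.00363), but was not called in cells led by another list than the proximal tubule (FDR 0.431). In contrast Cfb, the protease of the alternative pathway, fell from 50.5 and 32.9 CPM in naive to 21.2 and 18.99 CPM in tolerized kidneys (log2 difference -1.05, SE 0.23, FDR 0.0206), a call that was lost without naive 1 (FDR 0.102), at 20% mitochondrial UMIs (FDR 0.0885), and in cells led by another list (FDR 0.0943). The gene of Cfb overlaps another gene of the list. C1qa, made by macrophages, was among the 7 higher genes and is given below with the leukocyte transcripts.

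Among 20 chemokine genes tested, 9 were higher and 2 lower, beside 12.7% and 11.7% of all genes. Cxcl16, a chemokine anchored in the membrane of epithelium, had 33.1 and 29.8 CPM in naive and 148 and 138 CPM in tolerized kidneys (log2 difference 2.18, SE 0.15, FDR 0.000418). Ccl8, which attracts monocytes and T cells, gave 0 and 1 UMIs in naive kidneys and 7.27 and 4.79 CPM in tolerized kidneys (FDR 0.000858). The other direction was taken by Ccl27a, an epithelial chemokine, with 24.9 and 27.9 CPM in naive and 1.56 and 2.44 CPM in tolerized kidneys (log2 difference -3.71, SE 0.25, FDR 0.000409). Cxcl12, a constitutive chemokine, had 11.5 and 14.9 CPM in naive and 4.04 and 6.38 CPM in tolerized kidneys (log2 difference -1.33, SE 0.27, FDR 0.017), and was not past the FDR without naive 2 (FDR 0.0786) or in cells led by another list than the proximal tubule (FDR 0.245). Ccl5, a chemokine of activated T cells, was 3.39 and 13.3 CPM in naive and 43.01 and 20.5 CPM in tolerized kidneys and did not pass (log2 difference 1.95, SE 0.62, FDR 0.0656), but did without naive 2 (FDR 0.0104) and without tolerized 2 (FDR 0.028). It also passed without a filter on low counts (FDR 0.00143), at 20% mitochondrial UMIs (FDR 0.0097), after thinning to 500 UMIs per cell (FDR 0.00423), and in cells led by another list, at a log2 difference of 5.31 (FDR 0.00592). Without naive 1, 6 chemokines were called higher, and without naive 2, 8.

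Leukocyte transcripts remained at low levels after the rule and differed between the groups. The 18 leukocyte markers tested, which exclude the 3 genes of the rule, summed to 48.5 and 118 CPM in the naive kidneys and to 248 and 147 CPM in the tolerized kidneys. All 18 log2 differences were above 0 (median 1.32), and 5 of 18 were called higher, beside 12.7% of all genes. By DESeq2's test 10 were called higher, without a filter on low counts 12, after thinning to 500 UMIs per cell 16, and in cells led by another list than the proximal tubule 13. With all 6 kidneys fitted together 4 were called higher, and with the replicate block 3. Without naive 1 and without tolerized 1, 2 were called, and without naive 2 and without tolerized 2, 11. C1qa, a macrophage gene, had 0.399 and 1.00 CPM in naive and 10.1 and 5.11 CPM in tolerized kidneys (log2 difference 3.47, SE 0.52, FDR 0.00694). Cd3g, a T cell gene, had 0.599 and 0.524 CPM in naive and 3.12 and 2.31 CPM in tolerized kidneys (log2 difference 2.26, SE 0.36, FDR 0.00819). Lyz2, abundant in myeloid cells, was at 10.4 and 23.7 CPM in naive and 61.4 and 28.04 CPM in tolerized kidneys, and did not pass (FDR 0.0786), but did without naive 2 or tolerized 2 (FDR 0.04 without naive 2 and 0.0175 without tolerized 2). It also passed without a filter on low counts (FDR 0.00326), after thinning to 500 UMIs per cell (log2 difference 2.98, FDR 0.00074), and in cells led by another list than the proximal tubule (log2 difference 3.68, FDR 0.0117). When barcodes with any UMI of 16 further leukocyte markers were also left out, 2366 and 2396 tolerized and 6724 and 5240 naive cells stayed. In these, 25 of 25 interferon-gamma-induced, 9 of 9 class II, and 22 of 22 class I genes were still called higher, and the log2 difference of Cd74 was 7.25 and that of Iigp1 7.22. Leukocyte transcripts not used for this exclusion were higher in the same cells, with both leukocyte markers still tested called, Lyz2 at a log2 difference of 3.64 (FDR 0.00562) among them, and Ccl5 at 3.52 (FDR 0.00842). Their part in the interferon values was not tested. Red cell transcripts marked 1 library, with Hbb-bs (beta globin) at 452 and 181 CPM in naive and 26.7 and 3408 CPM in tolerized kidneys, and no globin gene was called (FDR of Hbb-bs 0.308). The log2 difference of Hbb-bs was 3.42 without tolerized 1 and -3.57 without tolerized 2.

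Class II genes were higher in tolerized kidneys under each of the 6 kidney marker lists plotted, with sums given here for 5. In proximal tubule-leading cells the 9 class II genes summed to 187 and 336 CPM (here raw, without TMM) in naive and 11018 and 8028 CPM in tolerized kidneys, a 36.4-fold ratio of means. Principal cell-leading cells of the collecting duct had 28.8 and 54.9 CPM in naive and 3093 and 1239.8 CPM in tolerized kidneys (51.8-fold). Endothelium-leading cells had 30.2 and 162 CPM and 3754 and 4048 CPM (40.5-fold). The thick ascending limb had 12.6 and 37.7 CPM and 887 and 561 CPM (28.8-fold), and the distal convoluted tubule the least in tolerized kidneys, at 12.9 and 75.9 CPM against 411 and 296 CPM (7.97-fold). Both tolerized kidneys exceeded both naive kidneys under each of these lists, and the differences between lists were not tested. Leukocyte markers moved with them, as their summed CPM had a ratio of 1.91 in proximal tubule-leading cells, 7.28 under the thick ascending limb list, 7.18 under the distal convoluted tubule list, 9.84 under the principal cell list, and 3.39 under the endothelium list. Their part in the class II sums was not tested. In cells led by another list than the proximal tubule, 9 of 9 class II genes were called higher, as were 8 of 9 in proximal tubule-leading cells.

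Interferon-gamma-induced genes were summed in the same way, again with no test between lists. They reached 3386 and 3289.9 CPM under the proximal tubule list, from 49.1 and 76.5 CPM in naive kidneys (53.2-fold). Under the thick ascending limb list they reached 3108 and 2405 CPM from 69.8 and 116 CPM (29.7-fold). Endothelium-leading cells had 867 and 656 CPM in naive kidneys, more than the tubular lists, and 5709 and 5166 CPM in tolerized kidneys, so the ratio was 7.14-fold. Class I genes summed to 7290.2 and 9074 CPM in naive endothelium-leading cells and to 21392 and 23208 CPM in tolerized ones (2.73-fold), against 8.84-fold under the proximal tubule list. B2m alone was 2266 and 3431 CPM in naive and 2462 and 3202 CPM in tolerized endothelium-leading cells, where the groups overlapped. Cxcl9 in endothelium-leading cells was 0 in both naive kidneys and 374 and 223 CPM in the tolerized kidneys, above 12.2 and 8.91 CPM under the proximal tubule list. C4b was concentrated in tolerized proximal tubule-leading cells, at 265 and 212 CPM against 5.42 and 9.70 CPM under the thick ascending limb list. Transcripts released from other cells can reach these droplets, and Slc34a1, a phosphate carrier of the proximal tubule, gave 300.4 and 356 CPM in naive and 42.2 and 92.05 CPM in tolerized endothelium-leading cells.

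**Figure D3:**
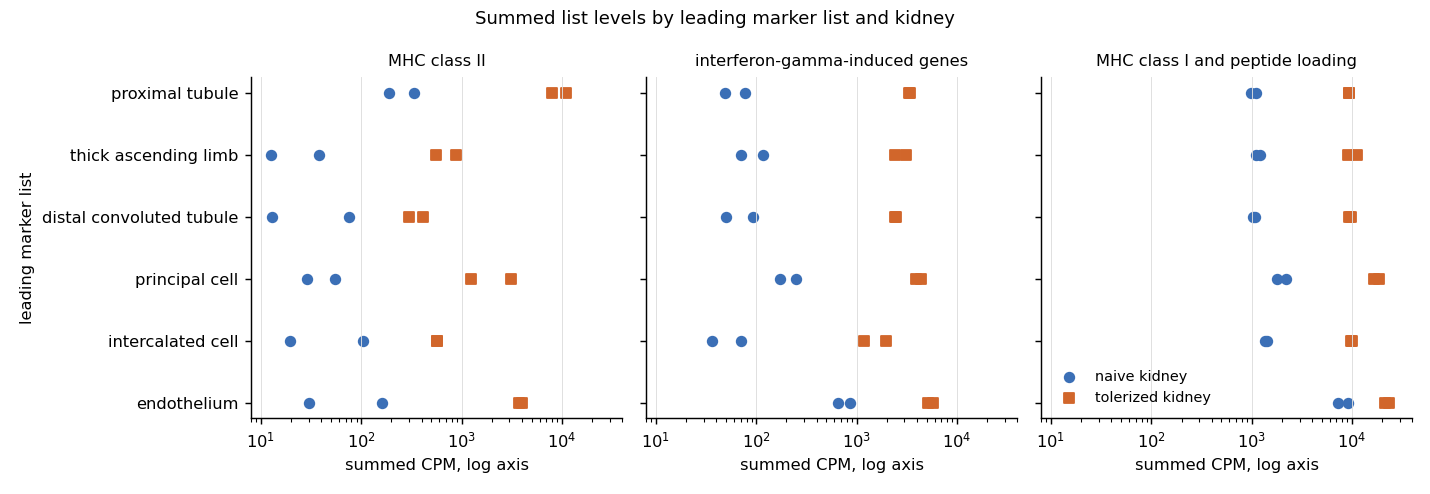
Summed raw CPM (x axis, log scale) of the MHC class II, interferon-gamma-induced, and MHC class I lists in cells led by each of 6 kidney marker lists (y axis), for each naive kidney (circles) and tolerized kidney (squares). Squares lie to the right of circles in every row, and class II sums of tolerized cells range from 411 and 296 CPM in the distal convoluted tubule to 11018 and 8028 CPM in the proximal tubule.

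Of 41 genes of tubular injury and repair, 7 were higher and 6 lower, near the 12.7% and 11.7% of all genes, with a median log2 difference of 0.04. Without naive 1 the counts were 1 and 2, and without naive 2 3 and 2. Vcam1, an adhesion molecule of injured tubules and of endothelium, had 5.49 and 2.88 CPM in naive and 33.9 and 22.2 CPM in tolerized kidneys (log2 difference 2.73, SE 0.35, FDR 0.00413). Havcr1, the injury receptor KIM-1, had 0.200 and 0.393 CPM in naive kidneys and 25.98 and 4.56 CPM in tolerized kidneys, both higher but far apart (log2 difference 5.72, SE 1.02, FDR 0.0119). Its call was lost without naive 1 (FDR 0.0519). Spp1 (osteopontin) had 823 and 759 CPM in naive and 1529 and 1703 CPM in tolerized kidneys (log2 difference 1.03, SE 0.16, FDR 0.00784), and was not past the FDR without either naive kidney (FDR 0.0574 without naive 1 and 0.0779 without naive 2), with all 6 kidneys fitted together (FDR 0.118), or in cells led by another list than the proximal tubule (log2 difference 0.10, FDR 0.667). Fgg, a fibrinogen chain that injured tubules can make, fell from 7.91 and 7.03 CPM to 2.10 and 1.78 CPM (log2 difference -1.95, SE 0.23, FDR 0.00303).

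Of transcripts induced early by stress, Atf3, a stress transcription factor, had 48.3 and 33.9 CPM in naive and 197 and 111 CPM in tolerized kidneys (log2 difference 1.90, SE 0.31, FDR 0.00898). Nr4a1, an immediate early gene too, had 23.2 and 26.3 CPM and 7.54 and 9.76 CPM (log2 difference -1.51, SE 0.19, FDR 0.00365), a call lost after thinning to 500 UMIs per cell (log2 difference -0.80, FDR 0.0525). They differed in opposite directions, and 4 of 26 immediate early genes were called in each, near the 12.7% and 11.7% of all genes. Without naive 1 and without naive 2 these counts were 2 higher and 1 lower, without tolerized 1, 4 higher and 8 lower, and without tolerized 2, 7 higher and 3 lower. Ccnd1, the cyclin D1 of the G1 phase, had 107 and 108 CPM in naive and 263 and 268 CPM in tolerized kidneys (log2 difference 1.30, SE 0.15, FDR 0.00259). Of 25 cell cycle genes, 2 were higher and 3 lower, beside the 12.7% and 11.7% of all genes. These calls changed with the kidney left out.

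Of 82 nuclear genes of the respiratory chain, 34 were lower and 0 higher (median log2 difference -0.47), beside 11.7% of all genes lower. Fewer were called lower without either naive kidney, as was so over all genes, and the median log2 difference without naive 1 was -0.54. By DESeq2's test 43 were lower and 0 higher. With all 6 kidneys fitted together 22 were lower, with the wider leukocyte exclusion described above 21, and with the replicate block 16, each with 0 higher. In cells led by a list other than the proximal tubule, 12 of 81 were lower and 1 higher (median log2 difference -0.17). Ndufa3, of complex I, had 869 and 1089 CPM in naive and 262 and 212 CPM in tolerized kidneys (log2 difference -2.05, SE 0.20, FDR 0.00168). Cox6a1, of cytochrome c oxidase, had 1729 and 1753 CPM in naive and 754 and 696 CPM in tolerized kidneys (log2 difference -1.26, SE 0.16, FDR 0.00365). Both were called whichever kidney was left out. Atp5k, of ATP synthase, had 1114 and 1384 CPM in naive and 736 and 608 CPM in tolerized kidneys (log2 difference -0.89, SE 0.19, FDR 0.0205), a call lost without either naive kidney (FDR 0.056 without naive 1 and 0.137 without naive 2) and with all 6 kidneys fitted together (FDR 0.0542). Cox8a, of cytochrome c oxidase and among the most abundant, had 2598 and 2765 CPM and 2155 and 2068 CPM and did not pass (FDR 0.148).

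The 13 genes encoded by mitochondrial DNA did not follow as a group, with 1 higher and 1 lower, beside 12.7% and 11.7% of all genes. The gene mt-Nd1, of complex I, had 26287 and 30789 CPM in naive and 7592 and 11231 CPM in tolerized kidneys (log2 difference -1.60, SE 0.23, FDR 0.0061). Their sum was 290776 and 264188 CPM in naive and 149568 and 253125 CPM in tolerized kidneys, where tolerized 1 was lowest and tolerized 2 close to naive 2. Without tolerized 1, 4 were called higher and 1 lower, without tolerized 2, 1 higher and 6 lower, and without naive 2, 0 higher and 1 lower. UMIs of these genes also counted toward the rule's limit of 50%, so they helped to choose the cells and their calls are no independent test. All limits together were passed by 7222 of 9335 and 6058 of 9291 naive barcodes. In tolerized kidneys 9819 of 10773 and 6880 of 8872 passed. The mitochondrial share of UMIs differed between groups as given above, and its part in these values was not tested. With cells of at most 20% mitochondrial UMIs, 26 of 82 nuclear genes were lower and 0 higher.

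Fatty acid oxidation and peroxisomal genes were lower in 14 and higher in 3 of 49, beside 11.7% and 12.7% of all genes. The lower calls became fewer without either naive kidney and more without tolerized 1. At 20% mitochondrial UMIs, 11 were lower and 8 higher. Eci3, a peroxisomal enoyl-CoA isomerase, had 165 and 177 CPM in naive and 84.9 and 50.2 CPM in tolerized kidneys (log2 difference -1.34, SE 0.26, FDR 0.0146). Slc25a20, which carries acylcarnitine into mitochondria, had 36.2 and 35.6 CPM in naive and 18.4 and 12.5 CPM in tolerized kidneys (log2 difference -1.22, SE 0.21, FDR 0.0104). Cat, the peroxisomal catalase, had 444 and 506 CPM in naive and 219.7 and 209.97 CPM in tolerized kidneys, 2.21-fold lower (log2 difference -1.14, SE 0.16, FDR 0.00536). Tolerized values of each were below naive ones, where groups did not overlap for 67.5% of all genes tested. Hadha, of mitochondrial beta-oxidation, was in contrast higher, at 70.7 and 76.2 CPM in naive and 111 and 115 CPM in tolerized kidneys (log2 difference 0.62, SE 0.14, FDR 0.0224, but FDR 0.165 after thinning to 500 UMIs per cell), but not without either naive kidney (FDR 0.167 without naive 1 and 0.121 without naive 2).

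Antioxidant genes were lower in 9 of 29 and higher in 0, beside 11.7% and 12.7% of all genes. Fewer were lower without either naive kidney, and some were higher without tolerized 2. At 20% mitochondrial UMIs, 7 were lower and 2 higher. By DESeq2's test 1 was higher. Prdx1, a peroxiredoxin, had 2428 and 2167 CPM in naive and 1086 and 876 CPM in tolerized kidneys (log2 difference -1.23, SE 0.18, FDR 0.00669), and its mitochondrial relative Prdx3 had 165 and 159 CPM and 62.5 and 72.4 CPM (log2 difference -1.26, SE 0.15, FDR 0.00327). Both were separated between groups, as were 67.5% of all genes tested. Gpx3, the plasma glutathione peroxidase that the proximal tubule secretes, had 11932 and 13112 CPM in naive and 8335 and 8278 CPM in tolerized kidneys (log2 difference -0.59, SE 0.15, FDR 0.0373). Its call was lost when any 1 kidney was left out (FDR 0.145 without naive 1, 0.229 without naive 2, 0.0546 without tolerized 1 and 0.0576 without tolerized 2), with all 6 kidneys fitted together (FDR 0.0929), and under the wider leukocyte exclusion (FDR 0.113).

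Of 47 xenobiotic-metabolizing enzymes, 15 were lower and 5 higher, beside 11.7% and 12.7% of all genes. At 20% mitochondrial UMIs, 10 were lower and 9 higher. Without naive 1, 7 were lower and 3 higher, and without naive 2, 11 and 3. Akr1c21, a ketosteroid reductase, had 1921 and 1755 CPM in naive and 271 and 152 CPM in tolerized kidneys, 8.68-fold lower (log2 difference -3.12, SE 0.30, FDR 0.00159). Inmt, which methylates indoleamines, had 819 and 626 CPM in naive and 128 and 123 CPM in tolerized kidneys (log2 difference -2.52, SE 0.19, FDR 0.000667). Adh1, an alcohol dehydrogenase, had 188 and 205 CPM against 54.2 and 34.5 CPM (log2 difference -2.15, SE 0.24, FDR 0.00257). Naive kidneys were thus far above tolerized kidneys in these enzymes. Ces2c, a carboxylesterase, had 1.76 and 1.75 CPM in naive and 104 and 68.1 CPM in tolerized kidneys, 48.9-fold higher (log2 difference 5.61, SE 0.28, FDR 0.000163). Gsta1, a glutathione transferase, had 1.53 and 0.960 CPM against 20.9 and 31.3 CPM (log2 difference 4.37, SE 0.32, FDR 0.000512), and the opposite sign in cells led by another list than the proximal tubule (log2 difference -0.16, FDR 0.831). These families hold close copies among which reads may be split.

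Of 27 organic ion and drug transporters, 8 were lower and 3 higher, beside 11.7% and 12.7% of all genes. Fewer were called in each direction without either naive kidney. At 20% mitochondrial UMIs, 4 were lower and 6 higher. Slc22a30, of the organic anion transporter family, had 265 and 252 CPM in naive and 73.02 and 45.7 CPM in tolerized kidneys (log2 difference -2.12, SE 0.24, FDR 0.00291). Slco1a1, an organic anion-transporting polypeptide, had 189 and 129 CPM in naive and 35.5 and 38.1 CPM in tolerized kidneys (log2 difference -2.11, SE 0.21, FDR 0.00183). The cation transporter Slc22a2 was higher, at 100.3 and 101 CPM and 197 and 145 CPM (log2 difference 0.76, SE 0.19, FDR 0.0303), but not without naive 1 or naive 2 (FDR 0.145 without naive 1 and 0.146 without naive 2), without barcodes above the 95th UMI percentile (FDR 0.0605), or after thinning (FDR 0.117). In cells led by another list its log2 difference was -0.54 (FDR 0.262). Of 32 genes of solute reabsorption, 6 were higher and 5 lower, near the shares of all genes. Fewer were called without either naive kidney and more without tolerized 1. At 20% mitochondrial UMIs, 15 were higher and 2 lower. Slc9a3, the sodium-proton exchanger NHE3, had 0.333 and 0.0873 CPM in naive kidneys and 31.1 and 42.00 CPM in tolerized kidneys (log2 difference 7.33, SE 0.40, FDR 0.000228). What the different gene lists of the groups did to the counts of Slc9a3 was not tested. Car4, a membrane carbonic anhydrase, had 159 and 184 CPM against 67.1 and 47.5 CPM (log2 difference -1.58, SE 0.21, FDR 0.00443). Slc34a1, the phosphate carrier, had 2495 and 2136 CPM in naive and 2012 and 1982 CPM in tolerized kidneys and did not pass (log2 difference -0.21, FDR 0.373). In cells led by another list its log2 difference was -1.87, and 10 of 16 proximal tubule markers were lower and 0 higher (median log2 difference -1.54). Slc34a1 is 1 of these markers, whose UMIs assigned those cells, so their values there are no test. Of 24 organic ion and drug transporters, 15 were lower there and 0 higher. The part of transcripts released from other cells in these values was not tested. Lrp2 (megalin), the receptor for filtered protein, had 568 and 566 CPM and 729 and 686 CPM and did not pass either (log2 difference 0.32, FDR 0.169), though it was higher at 20% mitochondrial UMIs (log2 difference 0.82, FDR 0.0148).

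**Figure D4:**
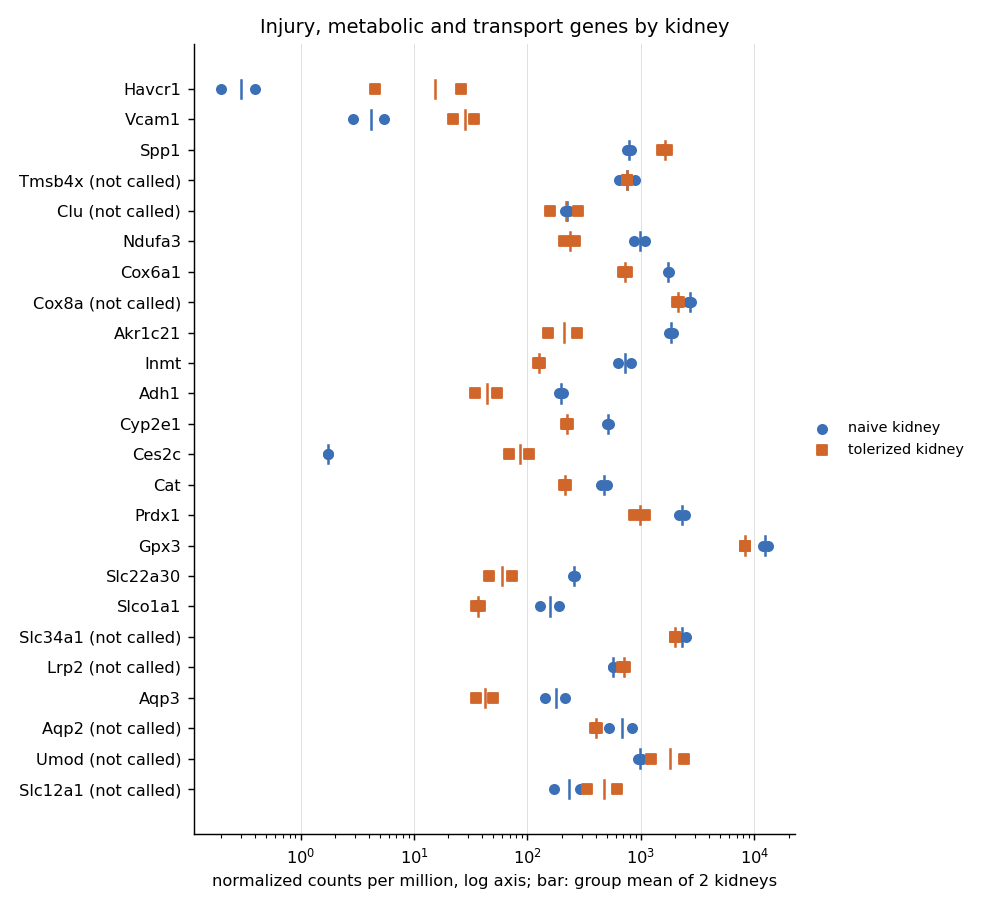
Normalized CPM (x axis, log scale) of genes of injury, metabolism, and transport in each naive kidney (circles) and tolerized kidney (squares), with bars at the means of 2 kidneys and a mark on genes that did not pass an FDR of 0.05. Havcr1 and Ces2c lie far to the right in tolerized kidneys, and Akr1c21, Inmt, and Adh1 far to the left.

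In the distal nephron, Aqp3, the basolateral water channel of principal cells, had 143 and 213 CPM in naive and 35.1 and 49.8 CPM in tolerized kidneys, 4.19-fold lower (log2 difference -2.07, SE 0.26, FDR 0.00402). This call was lost with all 6 kidneys fitted together (FDR 0.0866). The log2 difference of Aqp3 was -2.24 in proximal tubule-leading cells and -2.08 in the others. Its raw CPM in naive proximal tubule-leading cells were only 28.8 and 25.7, where the part of transcripts released from other cells was not tested. Under the principal cell list, which holds Aqp3 itself, they were 1738 and 2293.5 in naive and 911 and 641 in tolerized kidneys. Aqp2, the apical water channel regulated by vasopressin, had 529 and 833 CPM and 413 and 397 CPM and did not pass (FDR 0.0633), though it did without naive 1 (FDR 0.0468), by DESeq2 (FDR 0.0114), without a filter on low counts (FDR 0.0148), and at 20% mitochondrial UMIs (FDR 0.0192). Cldn19, a claudin needed for magnesium and calcium reabsorption in the thick ascending limb, had 8.08 and 8.47 CPM in naive and 21.2 and 20.2 CPM in tolerized kidneys (log2 difference 1.33, SE 0.15, FDR 0.00288), but was not called at 20% mitochondrial UMIs (log2 difference 0.90, FDR 0.129). Its sign turned in proximal tubule-leading cells (log2 difference -0.78, FDR 0.204). Umod (uromodulin) had 1014 and 936 CPM in naive and 1215 and 2395 CPM in tolerized kidneys and did not pass (FDR 0.0844). It passed by DESeq2 (FDR 0.0162) and without a filter on low counts (FDR 0.0104), and its log2 difference was 1.29 without tolerized 1. In cells led by another list than the proximal tubule its log2 difference was 0.87. Umod is a thick ascending limb marker whose UMIs helped to assign those cells, so that value is no test of it. At 20% mitochondrial UMIs the log2 difference of Umod was 1.96 (FDR 0.000497), against 0.89 with all cells. Cells led by the thick ascending limb list had medians of 37.6% and 40.8% mitochondrial UMIs in naive kidneys. In tolerized kidneys these medians were 22.6% and 28.6%, so the limit can remove different shares of these cells. Its part in the Umod value was not tested. Of 42 genes of distal salt, calcium, and magnesium handling, 7 were higher and 3 lower, beside 12.7% and 11.7% of all genes. These counts were 4 and 3 without naive 1, 1 and 1 without naive 2, 14 and 2 without tolerized 1, and 5 and 16 without tolerized 2. The share of cells led by distal lists differed between the tolerized kidneys as given above.

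Of the hormone genes, Agt, the precursor of angiotensin, had 7.88 and 9.47 CPM in naive and 0.602 and 0.0938 CPM in tolerized kidneys (log2 difference -4.68, SE 0.63, FDR 0.00503). Both tolerized values lay far below the naive ones. Ren1 (renin), made by juxtaglomerular cells, had 0.698 and 0.436 CPM and 6.64 and 33.1 CPM (log2 difference 5.09, SE 0.87, FDR 0.0105), but was not called with all 6 kidneys fitted together (FDR 0.0926). Both tolerized values of Ren1 exceeded the naive ones, with tolerized 2 far above tolerized 1. Of 19 hormone genes and enzymes, 1 was higher and 2 were lower, beside 12.7% and 11.7% of all genes. Without tolerized 2, 3 were higher and 7 lower, and without either naive kidney, 1 was lower. In proximal tubule-leading cells Ren1 was not called (log2 difference 0.66, FDR 0.661), and in the others it was (log2 difference 5.51, FDR 0.0135). Under each of the 6 lists plotted above, Ren1 was at most 0.883 raw CPM in either tolerized kidney. Stroma markers, the list not given so far, led in only 14 and 11 tolerized and 9 and 18 naive cells. How many cells held the Ren1 UMIs was not counted.

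Genes that depend on sex were read as a check of the labels. The 4 Y-linked genes tested were found in each kidney. Ddx3y, an RNA helicase, had 55.3 and 48.1 CPM in naive and 38.8 and 38.8 CPM in tolerized kidneys and did not pass (FDR 0.0804). Of the 4, 0 were called by edgeR, by DESeq2, or without any 1 kidney, and only Ddx3y had an unadjusted p under 0.05. Xist, the RNA of the inactive X chromosome, gave 5 and 1 UMIs in naive kidneys and 3 and 5 UMIs in tolerized kidneys. 5 of 10 genes known to be higher in male kidneys were lower in tolerized kidneys and 0 were higher, beside 11.7% and 12.7% of all genes. At 20% mitochondrial UMIs, 4 were lower and 3 higher. Odc1, ornithine decarboxylase, had 506 and 567 CPM in naive and 165 and 222 CPM in tolerized kidneys (log2 difference -1.47, SE 0.20, FDR 0.00492). Cyp2e1, a cytochrome P450, had 504 and 527 CPM and 228 and 221 CPM (log2 difference -1.20, SE 0.15, FDR 0.00389), but was not past the FDR in cells of at most 20% mitochondrial UMIs (FDR 0.088). Kap, an androgen-regulated protein of the proximal tubule, had 19881 and 20075 CPM in naive and 39549.5 and 19945 CPM in tolerized kidneys and did not pass (FDR 0.218). Its log2 difference was 0.98 without tolerized 2 and -0.0091 without tolerized 1. Kap was higher at 20% mitochondrial UMIs (log2 difference 1.48, FDR 0.00193). It was lower in cells led by another list (log2 difference -1.11, FDR 0.0334), as were 10 of 16 proximal tubule markers, whose UMIs assigned those cells. With naive 1 left out, 3 of 10 male-biased genes were lower, and with tolerized 2 left out, 4 were lower and 3 higher. Prlr, the prolactin receptor and higher in female kidneys, overlaps another gene and had 2.69 and 2.27 CPM in naive and 17.97 and 19.9 CPM in tolerized kidneys (log2 difference 2.92, SE 0.19, FDR 0.000371), but was not called in cells led by another list than the proximal tubule (FDR 0.232). Age and strain differed with the groups and cannot be told apart from this.

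A strain check was not decisive. Nnt, a mitochondrial transhydrogenase that is known to carry a deletion in the B6J substrain, had 55.9 and 49.5 CPM in the naive B6 kidneys and 4.10 and 8.03 CPM in the tolerized BALB/c kidneys (log2 difference -3.11, SE 0.32, FDR 0.00195). Its gene model overlaps a gene listed for 1 group of kidneys only, and reads outside the deleted part check nothing, so no strain is read from it.

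The 15 largest differences in each direction, among genes of at least 20 CPM in the higher group, held genes of several kinds. Of the 15 higher genes, Gbp2b, Gbp10, Ubd, Iigp1, Gbp6, Gbp4, C4b, and Slc9a3 are described above. Kctd17, an adaptor of a ubiquitin ligase, had 0.200 and 0.175 CPM in naive and 36.9 and 28.8 CPM in tolerized kidneys (log2 difference 7.42, SE 0.28, FDR 7.93e-05). Angptl7, an angiopoietin-like secreted protein, had 3.43 and 2.92 CPM in naive and 282 and 254 CPM in tolerized kidneys (log2 difference 6.39, SE 0.20, FDR 6.69e-05). Gm42418, which overlaps ribosomal RNA, had 193 and 231 CPM in naive and 10179 and 50897 CPM in tolerized kidneys, with tolerized 2 far above tolerized 1 (log2 difference 7.17, SE 0.84, FDR 0.00298).

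Among the 15 lower genes, 7 overlapped on the same strand a gene that was listed for 1 group of kidneys only, against 0 of the 15 higher genes. Over all genes tested, 51 of 115 such genes were called (44.3%) against 24.2% of the others. Hgs, an endosomal sorting protein, is 1 of these, with 22.1 and 21.2 CPM in naive and 0.0892 and 0.0188 CPM in tolerized kidneys (log2 difference -8.63, SE 0.37, FDR 0.000122). Pelo, which rescues stalled ribosomes, is another, with 24.7 and 25.4 CPM and 0.580 and 1.03 CPM (log2 difference -4.94, SE 0.28, FDR 0.000241). Overlaps could be found only with genes present in GENCODE M21. How many of the genes listed for naive kidneys only are in it was not counted. The 0 of 15 therefore does not show that the higher genes are free of such overlaps. The part of the gene lists in these differences was not tested. Of those without such an overlap, Azgp1, a zinc-binding glycoprotein, had 78.7 and 27.4 CPM in naive kidneys and 0 UMIs in both tolerized kidneys, at least 862-fold lower (FDR 0.00186). Car3, a carbonic anhydrase of muscle and fat, had 75.7 and 108 CPM in naive kidneys and 2 and 1 UMIs in the tolerized kidneys (FDR 7.93e-05). Genes with processed pseudogenes may be counted differently under different gene lists, which was not tested, and Pgk1, a glycolytic kinase, had 7.02 and 18.8 CPM in naive and 297 and 279.8 CPM in tolerized kidneys (log2 difference 4.49, SE 0.46, FDR 0.00196). Among 78 ribosomal protein genes, 11 were higher and 17 lower, beside 12.7% and 11.7% of all genes. They ranged from Rpl13a at 1088 and 1172 CPM in naive and 115 and 88.6 CPM in tolerized kidneys (log2 difference -3.47, SE 0.20, FDR 0.000268) to Rps20 at 473 and 557 CPM and 1497 and 1376 CPM (log2 difference 1.48, SE 0.17, FDR 0.00291). Without naive 1, 1 was higher and 7 lower, without naive 2, 2 and 6, and without tolerized 1, 9 and 27. Rpl13a overlaps another gene of the list, and ribosomal protein genes have many near-copies.

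The study singled out 8 genes in tubular clusters where rejecting kidneys differed from tolerized and naive ones. It described Kap, Gpx3, Atp5k, Miox, Egf, and S100g as enriched in tolerized and naive kidneys, and Ccl5 and Ccl8 as enhanced in rejecting kidneys. The contrast here is another, of tolerized against naive kidneys over all kept cells. In it Ccl8 was called higher and Atp5k and Gpx3 lower, as given above with Kap and Ccl5. Miox, which starts inositol breakdown in the proximal tubule, had 2604 and 2866 CPM in naive and 2377 and 1761 CPM in tolerized kidneys (FDR 0.179). Egf, a growth factor of the distal nephron, had 792 and 553 CPM and 189 and 651 CPM (FDR 0.378), and S100g, a calcium-binding protein of the distal tubule, 2307 and 2861 CPM and 1281 and 2842 CPM (FDR 0.538). These 3 did not pass. Without tolerized 2, Egf and S100g were lower (FDR 0.00309 for Egf and FDR 0.0127 for S100g), and without tolerized 1, Miox was (FDR 0.0418). In cells led by another list than the proximal tubule the log2 difference of Miox was -1.90, and 10 of 16 proximal tubule markers were lower there. Miox is 1 of these markers, whose UMIs assigned those cells, so this value is no test of it. Tolerized 1 was the lowest of the 4 kidneys for Egf and S100g. The study chose these genes on the same kidneys.

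The same cells of rejecting kidneys, 2678 and 1915 in number, were set beside the tolerized ones, to ask which of these levels differed between grafts with and without ECDI-SP. Both kinds of graft shared strain, age, day, and gene list, and their levels were normalized apart from those above. The rule kept 22.8% and 23.7% of rejecting barcodes that passed the limits, against 43.9% and 60.6% of tolerized ones. Median UMIs were 2029 and 3516 in rejecting and 6193.5 and 7795 in tolerized cells. Proximal tubule markers led in 60.1% and 53.3% of rejecting and 73.4% and 61.9% of tolerized cells. The part of cell composition and depth in the differences between grafts was not tested. At an FDR of 0.05, 4 of 14312 genes differed (0.0279%), and all 4, Cd52, Ly6c2, Ms4a4b, and Trbc2, are leukocyte genes that were lower in tolerized kidneys. Cd52, for example, had 322 and 222 CPM in rejecting and 40.8 and 41.3 CPM in tolerized kidneys (log2 difference -2.73, SE 0.25, FDR 0.0461). At an unadjusted p under 0.05 there were 1555 genes (10.9%), with 448 higher and 1107 lower after ECDI-SP, and DESeq2 called 483. The count of 4 became 9, 75, 56, and 0 without rejecting 1, rejecting 2, tolerized 1, and tolerized 2.

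Between the 2 kinds of graft, edgeR called 0 members of the 4 interferon and MHC lists at the FDR. DESeq2 called 10 of 84 members lower and 0 higher, beside 401 lower and 82 higher of all 14034 genes it gave an adjusted p. The median log2 difference of tolerized minus rejecting was -0.52 over 25 interferon-gamma-induced genes, of which 12 were lower and 0 higher at an unadjusted p under 0.05. For type I interferon-stimulated genes it was -0.53, with 17 of 29 lower, for class I genes -0.36, with 5 of 22 lower, and for class II genes -0.17, with 1 of 9 lower. Over all 14312 genes the median was 0.02, with 1107 lower and 448 higher at that p. Cd74 had 3747 and 3435 CPM in rejecting and 4489.8 and 3131 CPM in tolerized kidneys, a difference of 0.09 (95% interval -0.55 to 0.72, FDR 0.962). The Iigp1 level was 1276 and 1685 CPM in rejecting and 1275 and 1276 CPM in tolerized kidneys, a difference of -0.21 (95% interval -0.79 to 0.36, FDR 0.862). Both intervals include 0 and are narrow beside the differences from naive kidneys. Cxcl9 had 118 and 39.8 CPM in rejecting and 26.2 and 16.1 CPM in tolerized kidneys, a difference of -1.90 (95% interval -3.05 to -0.75, FDR 0.167). Leukocyte markers moved with these values, since all 18 had an unadjusted p under 0.05 and were lower with ECDI-SP. In proximal tubule-leading cells they summed to 1167 and 342 CPM in rejecting and 210.2 and 158 CPM in tolerized kidneys. Their part in the interferon values was not tested.

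Injury and metabolic genes are given in the same way. Vcam1 had 78.5 and 55.9 CPM in rejecting and 38.3 and 25.1 CPM in tolerized kidneys, a difference of -1.08 (95% interval -1.72 to -0.45, FDR 0.154). Havcr1 had 16.3 and 24.2 CPM and 29.3 and 5.16 CPM, a difference of -0.24 (95% interval -1.82 to 1.34, FDR 0.956), an interval too wide to place it. Of 82 nuclear respiratory chain genes, 7 had an unadjusted p under 0.05, all higher with ECDI-SP, and the median log2 difference was 0.33. Over all 14312 genes, 448 were higher and 1107 lower at that p. Atp5k had 249 and 406 CPM in rejecting and 829.99 and 688 CPM in tolerized kidneys, a difference of 1.21 (95% interval 0.52 to 1.90, FDR 0.147). For Gpx3 the levels were 5637 and 3996 CPM and 9399.8 and 9369 CPM, a difference of 0.96 (95% interval 0.32 to 1.61, FDR 0.216). Atp5k and Gpx3 were thus lower in tolerized than in naive kidneys and, without passing the FDR, higher in tolerized than in rejecting kidneys. Because the tolerized kidneys enter both comparisons, the 2 differences are not independent.

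**Figure D5:**
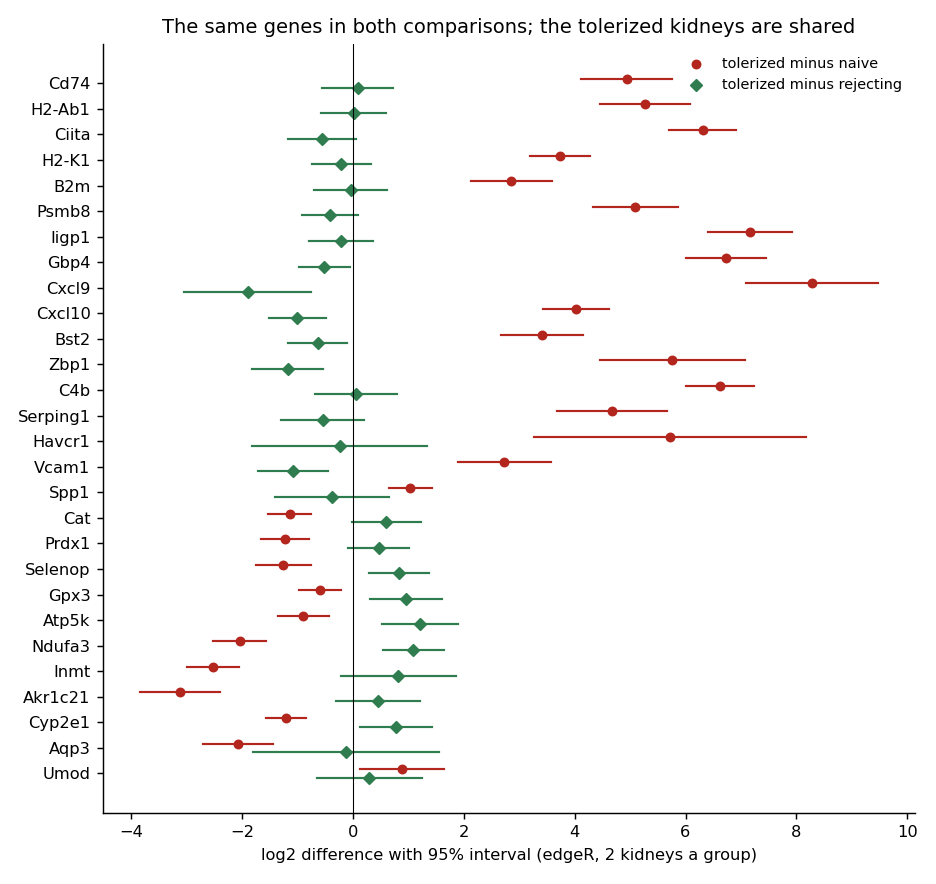
The log2 difference (x axis) of selected genes for tolerized minus naive (circles) and tolerized minus rejecting kidneys (diamonds), with 95% intervals, unadjusted for the number of genes, from edgeR's fits of 2 kidneys a group. For the interferon, class I, and class II genes the circles lie at 2.85 or more. The diamonds of Cd74, H2-Ab1, Iigp1, and the complement gene C4b have intervals that include 0. The interval of the Cxcl9 diamond lies below 0.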

How the data were processed

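Kidneys were dissociated and single cells were captured on the 10x platform, with 1 library per kidney. The deposited values are raw UMI counts per gene and barcode, which the authors made with Cell Ranger from reads aligned to mm10. The headers name version 3.0.1 for the 4 transplanted kidneys, and the version for the naive kidneys is not given in the sources used here. Gene lists held 28692 genes for naive and 31053 for transplanted kidneys, of which 28208 were shared by identifier and summed. The release of either list is not given in the sources used here. Overlaps between gene models were read from GENCODE M21, where 28174 of the shared genes were matched.

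Counts were summed per kidney over the kept barcodes and tested with edgeR 4.0.16 in R 4.3.3 (filterByExpr, TMM, quasi-likelihood test, FDR of 0.05). DESeq2 1.42.0 was an alternative. Python 3.11.15 was used with scipy 1.17.1 for the exact permutation test. On simulated counts for 14291 genes of this comparison, 52% of 2-fold and 100% of 4-fold changes were recovered, with 7 false calls. The simulation gave all genes the same spread between kidneys and changed a small part of them, none of low level. Its shares therefore do not carry over to genes of low level or of larger spread in the real data. No doublet caller was run, and leaving out barcodes above the 95th UMI percentile was tried instead. The other alternatives were the filter on low counts, UMI and mitochondrial limits, thinning to 500 UMIs per barcode, the cells and genes included, all 6 kidneys in 1 fit, and leaving out each kidney.

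The cells, the 40 gene lists, and the rule for named genes were chosen with earlier results of these data known. The named genes were taken from the 8 kidney genes of the study, the 15 largest differences in each direction, up to 4 called members per direction and the 3 most abundant members of each list, the sex-linked and strain genes, and the largest differences from rejecting kidneys. Of these 264 genes the text gives a selection made with their values known. The study processed kidneys of the groups together in 2 experiments. The labels do not tie the replicate numbers to these experiments or to a litter or day, and the numbers were not taken as pairs. Results for 1 gene of the lists are not reported here.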

Additional observations from a re-analysis of the deposited data

Results flagged for a closer look

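Genes listed for the transplanted kidneys only were left out of the sums, yet they held counts. They took 0.138% of the kept UMIs in tolerized 1 and 0.124% in tolerized 2. This was flagged because a signal was found in data that no comparison used, above the limit that a count of 0 allows. The naive kidneys have no counts for these 2845 genes, so no difference can be given.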

How the results depend on the processing

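The 3527 genes called between tolerized and naive kidneys became 2138 after thinning to 500 UMIs per barcode and 2260 in cells led by a list other than the proximal tubule, an alternative chosen after seeing the data. Leaving out a kidney gave 1321 to 3598 genes, and for the 299 distinct list members called, 158 to 387. The 4 genes called between tolerized and rejecting kidneys became 483 with DESeq2, 662 without a filter, 421 after thinning, 15 at 20% mitochondrial UMIs, and 2 at 1500 UMIs. They became 0 with DESeq2's size factors and in cells led by the proximal tubule or by another list. With the wider leukocyte exclusion, which left 170 and 902 rejecting cells, they became 0 too. Cd52 and Trbc2 are among the markers used for that exclusion, so these genes could not be called there. Leaving out a kidney gave 0 to 75. The difference in cell number ranged from -2759 to -1490 without a kidney and turned to 308 at 20% mitochondrial UMIs. The cause of these changes was not tested.

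With the replicate block, 2022 genes were called between tolerized and naive kidneys, 220 of the list members, and 551 genes between tolerized and rejecting kidneys. Deviations of kidneys with the same number had correlations of -0.156 and 0.189 in these comparisons. With crossed numbers, chosen after seeing the data, the counts were 4594 and 0. The labels do not say which kidneys shared 1 of the study's 2 experiments, so that neither pairing can be preferred.

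Direction turned for few named genes. At 20% mitochondrial UMIs, the log2 differences of Egf and S100g were 0.59 and 0.013. In proximal tubule-leading cells those of Cldn19 and Umod were -0.78 and -0.079, and in cells led by another list those of Gsta1, Kap, Lrp2, and Slc22a2 were -0.16, -1.11, -0.75, and -0.54. In the latter cells 10 of 16 proximal tubule markers were lower and 0 higher. Lrp2 and Umod are themselves markers whose UMIs assigned the cells, so their values in cells chosen by leading list do not test them. With tolerized 1 or tolerized 2 left out, Kap had -0.0091 or 0.98, S100g 0.13 or -1.02, and Hbb-bs 3.42 or -3.57. Each group had 2 kidneys, which limits the precision of all estimates, and few UMIs limit it further for some genes.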
